A study of Mus musculus with 19 samples.

Results

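Hepatocyte identity rests on a small set of transcription factors, of which 9 were described here in mouse liver tumours: Hnf4a, Foxa1, Foxa2, Foxa3, Cebpa, Cebpb, Prox1, Nr5a2 and Onecut1. They are given by name, as a list drawn up with earlier results of these data known, and 9 of 9 were found by symbol and Ensembl identifier among the 39179 genes of the count table. The series holds 19 liver samples from male mice, namely 13 tumours, 3 control livers and 3 high AAV control livers. Every group carried Ctnnb1tm1Mmt HET, an activating β-catenin allele, and Gt(ROSA)26Sortm1(MYC)Djmy HOM, a human MYC transgene, both switched on by Cre. The tumours arose in mice of mixed background that received AAV8.TBG.PI.Cre.rBG as adults at 640000000 genome copies per mouse, in which the thyroxine-binding globulin promoter restricts Cre to hepatocytes. Whole tumour pieces were sequenced, so RNA of other cells is part of each value. The 10 tumours numbered 04 to 13 were used, because their column of the table could be tied to a label, and control livers were not analysed here. Each tumour is 1 library, and its column also carries a tag. RMH4_5b marks tumour 04, RMH4_5c tumours 05 and 06, RMH18_1d tumours 07 and 08, RMH35_1b tumours 09 and 10, and RMH35_1c tumours 11, 12 and 13. The labels do not say what the tag stands for, and if it names a mouse, tumours that share it are not independent. P-values therefore measure the spread between these tumours only.

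These factors bind the regulatory regions of liver genes and of one another, forming a network that is built in the embryo and kept up in the adult. HNF4A is a nuclear receptor needed for the adult hepatocyte programme. FOXA1, FOXA2 and FOXA3 are forkhead factors that open chromatin for others in liver development. CEBPA favours metabolic genes and restrains growth, whereas CEBPB is inducible and takes part in the acute phase response and in regeneration. PROX1 is a homeobox factor that works with nuclear receptors, NR5A2 (LRH-1) governs bile acid and sterol genes, and ONECUT1 (HNF6) acts in both hepatocytes and bile ducts.

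Gene counts summed to between 11687034 (tumour 07) and 36964427 (tumour 13) per library, with a median of 16664597, so that 3 counts correspond to between 0.0812 and 0.257 counts per 1000000 counts (CPM). This floor covers counting error only. The hepatocyte label was checked against 8 markers, all of which were detected in each tumour. Alb, the albumin gene, stayed between 13041 and 23970 CPM, while Cps1, a urea cycle enzyme of periportal hepatocytes, was low at a median of 30.2 CPM. Tumours 07 and 09 carried the most RNA of stellate cells, fibroblasts, endothelium and red blood cells, which does not hold for macrophage markers (highest in tumour 06, at 309 CPM). The summed level of 8 stellate and fibroblast markers reached 1233 CPM (tumour 07) and 1329 CPM (tumour 09) and lay between 205 and 703 CPM elsewhere. The summed level of 5 red blood cell markers was 5931 CPM in tumour 07, 1697 CPM in tumour 09 and 104 to 880 CPM elsewhere. In such bulk tissue, fewer hepatocytes and less of a transcript per hepatocyte cannot be told apart.

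The start regions of 4 members are shown because the results turn on how Hnf4a and Foxa1 moved together and on the balance of Cebpa and Cebpb. They come from RefSeq on GRCm38.p6 and run from 250 bases before the annotated start to 50 bases after it, on the strand of the gene. Capitals mark every match, on either strand, to the 11 short motifs spelled out after the sequences.

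Hnf4a, upstream start, chr2:163506607-163506906, forward strand: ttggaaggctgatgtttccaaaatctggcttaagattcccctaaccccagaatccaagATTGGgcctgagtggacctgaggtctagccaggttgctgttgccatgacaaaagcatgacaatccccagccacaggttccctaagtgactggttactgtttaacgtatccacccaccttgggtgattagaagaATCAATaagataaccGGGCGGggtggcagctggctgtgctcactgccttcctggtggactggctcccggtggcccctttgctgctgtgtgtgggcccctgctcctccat

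Hnf4a, downstream start, chr2:163546905-163547204, forward strand: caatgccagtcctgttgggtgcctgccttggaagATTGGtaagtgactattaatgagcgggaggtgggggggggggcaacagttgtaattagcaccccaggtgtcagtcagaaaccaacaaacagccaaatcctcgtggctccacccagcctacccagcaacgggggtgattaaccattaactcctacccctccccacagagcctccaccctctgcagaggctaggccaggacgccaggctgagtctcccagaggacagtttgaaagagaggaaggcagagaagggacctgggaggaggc

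Foxa1, chr12:57546062-57546361, reverse strand: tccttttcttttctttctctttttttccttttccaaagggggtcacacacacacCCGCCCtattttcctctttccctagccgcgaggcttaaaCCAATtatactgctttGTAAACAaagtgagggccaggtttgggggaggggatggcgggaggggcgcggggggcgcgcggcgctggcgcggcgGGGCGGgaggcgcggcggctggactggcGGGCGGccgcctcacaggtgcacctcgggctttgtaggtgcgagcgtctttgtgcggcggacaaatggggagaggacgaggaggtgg

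Cebpa, chr7:35119043-35119342, forward strand: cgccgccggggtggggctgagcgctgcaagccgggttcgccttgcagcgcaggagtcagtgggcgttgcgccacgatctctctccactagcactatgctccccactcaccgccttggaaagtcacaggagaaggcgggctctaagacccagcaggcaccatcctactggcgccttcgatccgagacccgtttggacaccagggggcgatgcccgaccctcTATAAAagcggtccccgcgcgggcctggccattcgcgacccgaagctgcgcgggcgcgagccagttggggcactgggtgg

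Cebpb, chr2:167688665-167688964, forward strand: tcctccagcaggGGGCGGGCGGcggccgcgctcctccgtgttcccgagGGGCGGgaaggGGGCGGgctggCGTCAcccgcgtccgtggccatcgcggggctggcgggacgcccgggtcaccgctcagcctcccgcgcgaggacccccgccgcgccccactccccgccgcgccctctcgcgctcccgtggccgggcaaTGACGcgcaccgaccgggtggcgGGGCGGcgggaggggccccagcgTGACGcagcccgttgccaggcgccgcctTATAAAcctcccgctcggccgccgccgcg

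The regions differed widely in base composition. Both Hnf4a starts held 4 CpG dinucleotides, below the median of 7 over all 32851 promoters of the table. Foxa1 held 26, Cebpa 29 and Cebpb 50, and Cebpb had a GC content of 80.7%. Among the 14 promoters of the 9 members, the CpG number ran from 2, at a start of Nr5a2, to 50. TATAAA, the TATA box, occurs in 13.6% of all promoters and was present at an offset of -30 bases from the start of Cebpa. In Cebpb it lay after the start, at 21. The core FOXA motif TGTTTAC, held by 3.65% of all promoters, matched Foxa1 itself at -141. TGACG, the core of the cyclic AMP response element (20.8% of promoters), matched Cebpb 3 times, at -180, -53 and -7. ATTGAT, an ONECUT core (7.54%), matched the upstream start of Hnf4a at -59. CCAAT (37.4%) matched both Hnf4a starts and Foxa1, whereas GGGCGG (35.7%) matched Cebpb 5 times, with the first pair overlapping, Foxa1 3 times and the upstream start of Hnf4a once. No letters matching TTGCNNAA for C/EBP (10.8%), CAAAGTCCA for HNF4A (0.475%), CAAGGTCA for NR5A2 (1.56%), CACGTG (7.15%) or ATCAAAG for TCF (3.73%) stood in these 5 windows. A match is a description of the letters and not evidence of binding.

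Levels were compared between genes only after division by exon length, as CPM per kb. Hnf4a was the most abundant member in 8 of 10 tumours, with 148 ± 21.1 CPM per kb (SD, n = 10). This was above 98.0% of the 11222 protein-coding genes among the 12462 genes that passed the filter on low counts. Cebpb (122 ± 82.6) and Cebpa (113 ± 36.3) came next, and the mean log2 difference between Hnf4a and Cebpb, 0.50 ± 0.90, lay within its spread. Cebpb exceeded Cebpa in 6 of 10 tumours. Foxa3 (36.8 ± 11.0) stood below Cebpa in 10 of 10 tumours and above Prox1 in 10 of 10. Prox1 (10.0 ± 2.64) and Foxa2 (9.91 ± 1.14) were not separated, since Prox1 was higher in 5 tumours and Foxa2 in 5. Foxa1 (5.37 ± 1.67) lay below Foxa2 in 10 of 10 tumours, and it was not separated from Nr5a2 (4.81 ± 0.755). Onecut1, at 0.528 ± 0.311 CPM per kb, was lowest in 10 of 10 tumours. The plot of levels shows these steps.

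**Figure D1:**
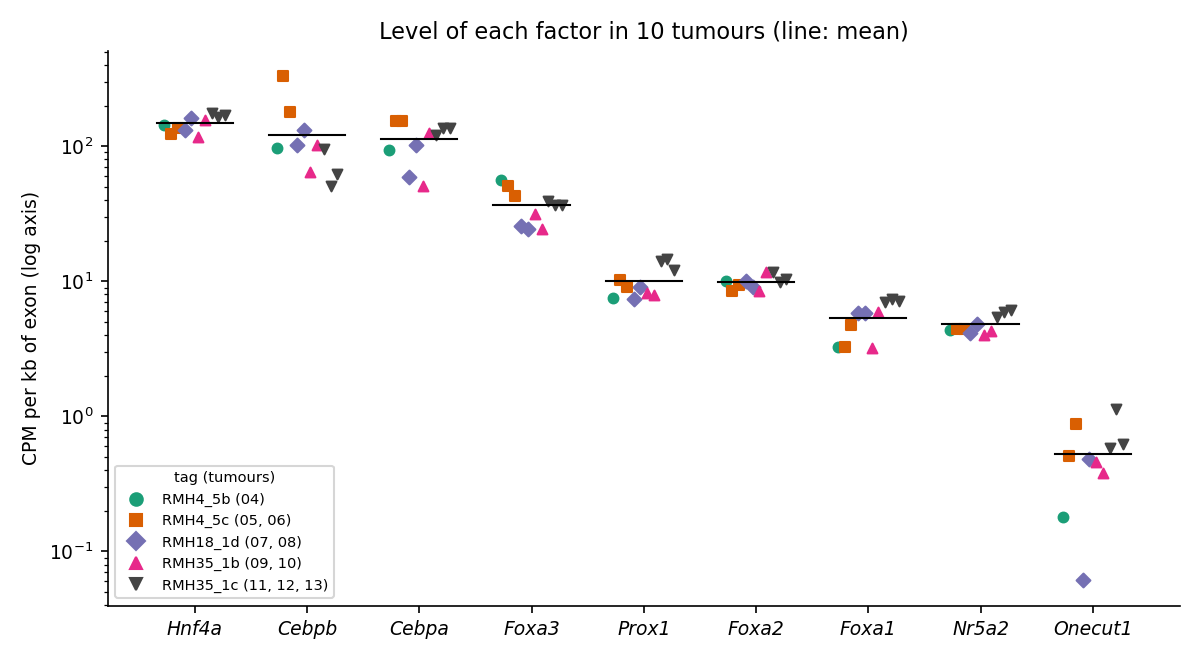
Level of the 9 factors in each of 10 tumours, in CPM per kb of exon on a log axis, with a point per tumour coloured and shaped by the tag of its column and a line at the mean. Hnf4a, Cebpb and Cebpa overlap at the top, Foxa3 forms a step of its own, and Onecut1 lies below every other factor in 10 of 10 tumours.

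Hnf4a (chromosome 2, 163506811 to 163572907, forward strand, on GRCm38) was expressed at a steady level. It had 587 CPM in tumour 09, the lowest, a median of 754 CPM and 888 CPM in tumour 11, the highest, a 1.51-fold range. The lowest count behind these values was 7541. The SD of its log2 CPM was 0.21, smaller than that of all but 12.6% of the genes kept, for which the median SD was 0.34. Counts are per gene and so do not tell transcripts from the upstream and the downstream start apart.

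The 3 Foxa genes differed in both level and steadiness. Foxa2 (chromosome 2, 148042877 to 148046969, reverse strand) was the steadiest of the 9 members, from 28.6 CPM in tumour 09 through a median of 33.8 CPM to 39.7 CPM in tumour 11. Its SD of 0.16 log2 units exceeded that of only 3.69% of genes. Foxa1 (chromosome 12, 57540628 to 57548029, reverse strand) was between 10.8 and 11.0 CPM in tumours 04, 05 and 09, and between 23.6 and 25.0 CPM in tumours 11, 12 and 13, with a median of 19.6 CPM. The remaining 4 tumours lay between these groups of values, at 16.1 to 20.0 CPM. Foxa3 (chromosome 7, 19013283 to 19023539, reverse strand) ran the other way in several tumours, with its highest values of 115 CPM in tumour 04 and 104 CPM in tumour 05. Its lowest were 49.8, 50.0 and 52.4 CPM in tumours 08, 10 and 07, around a median of 75.0 CPM.

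As a result the make-up of the Foxa pool changed from tumour to tumour. Foxa3 gave the largest part of the summed Foxa CPM per kb in 10 of 10 tumours, from 58.2% in tumour 10 to 81.2% in tumour 05. Foxa2 gave from 13.6% (tumour 05) to 27.7% (tumour 10), and Foxa1 from 4.68% (tumour 04) to 14.8% (tumour 08). The share of Foxa1 was 14.1% in tumours 07 and 10, and it stayed between 12.1% and 13.8% in tumours 11, 12 and 13.

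The pair of C/EBP genes varied more. Cebpa (chromosome 7, 35119293 to 35121928, forward strand) was lowest in tumours 09 and 07, at 133 and 157 CPM, had a median of 325 CPM, and was highest in tumours 06 and 05, at 407 and 404 CPM. Tumours 09 and 07 thus stood below the range of the other 8, which began at 248 CPM, and were the tumours with the most stellate, fibroblast and red blood cell RNA. Over the 912 chromosome 7 genes kept, where Cebpa lies, the median deviation from the mean of the other tumours was -0.20 in tumour 09 and -0.30 in tumour 07, the lowest of the 10 tumours. The deviations of Cebpa from its mean over all 10 tumours, a slightly smaller measure, were -1.08 and -0.84. The part of those cells and of this chromosome-wide shift in the difference was not tested. Without tumour 09 the SD of Cebpa dropped from 0.56 to 0.42 log2 units.

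Cebpb (chromosome 2, 167688915 to 167690432, forward strand) had the widest range of the 8 members that passed the filter. It ran from 76.6 CPM in tumour 12 through a median of 149 CPM to 499 CPM in tumour 05, a 6.51-fold range. Its SD of 0.79 log2 units exceeded that of 90.5% of genes, and of 95.4% of the 871 genes with a mean within 0.5 log2 units of its own. Tumour 05 set much of this spread, as the SD was 0.57 without it. An exon of Peds1, which lies on the opposite strand, overlaps Cebpb. Peds1 had 210 to 1133 counts against 1590 to 7800 for Cebpb, and whether counting used the strand is not given in the sources used here.

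The balance of the pair therefore shifted. Per kb, Cebpa was 0.463 times Cebpb in tumour 05 and 0.582 times in tumour 07, but 2.18 times in tumour 13 and 2.66 times in tumour 12. Cebpa exceeded Cebpb in 4 tumours, namely 10, 11, 12 and 13, and was below it in the other 6. In the plot of family balance, tumours 11, 12 and 13, which share a tag, lie above 0 together with tumour 10.

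**Figure D2:**
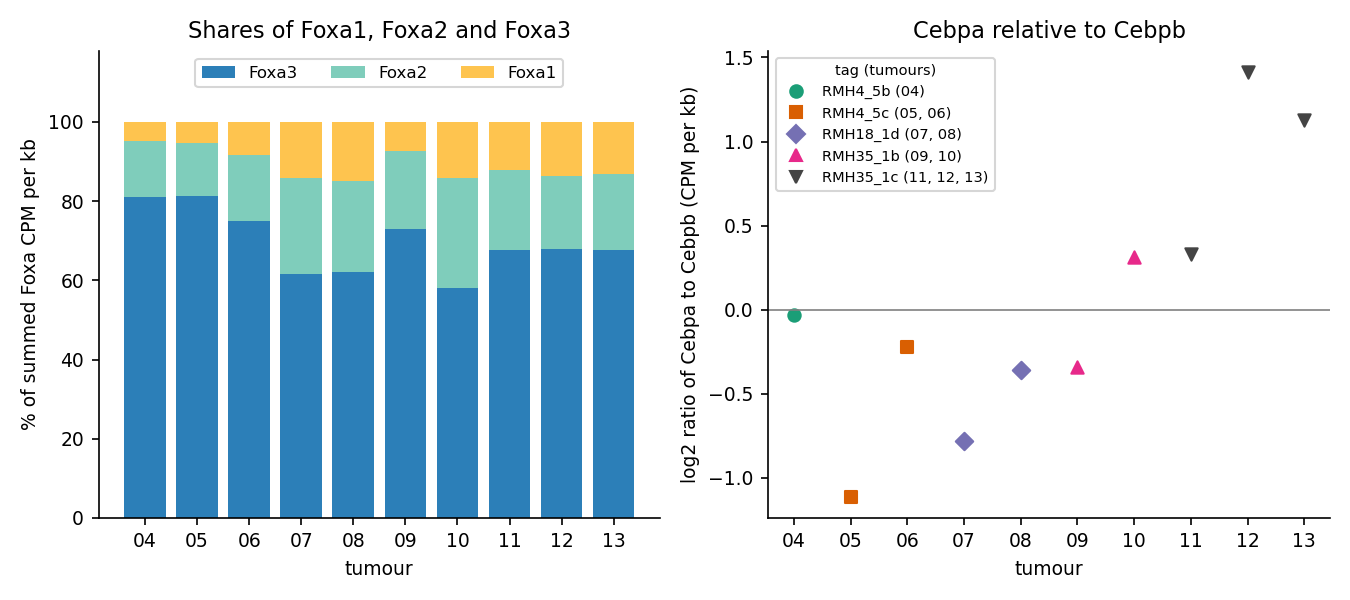
Left, share of Foxa3, Foxa2 and Foxa1 in their summed CPM per kb in each of 10 tumours, in percent; right, log2 ratio of Cebpa to Cebpb, each in CPM per kb, with points coloured and shaped by tag. Foxa3 takes between 58.2% and 81.2% of the pool, and the C/EBP ratio runs from -1.11 in tumour 05 to 1.41 in tumour 12.

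Prox1 and Nr5a2, both on chromosome 1, were raised in the same 3 tumours. Prox1 (190118035 to 190170827, reverse strand) had 126, 131 and 108 CPM in tumours 11, 12 and 13, whereas the other 7 tumours had 66.9 to 92.1 CPM. Nr5a2 (136842562 to 136960448, reverse strand) had 47.3, 50.8 and 53.0 CPM in those tumours and 34.9 to 41.9 CPM in the other 7. The values of tumours 11, 12 and 13 did not overlap the rest for either gene. The same held for Hnf4a (836 to 888 CPM against at most 818 CPM) and Foxa1 (23.6 to 25.0 CPM against at most 20.0 CPM). The share of all genes with such a gap was not computed. Because tumours 11, 12 and 13 form a cluster apart, no pooled correlation is given for Prox1 with Nr5a2. After each tag's mean was taken off both genes their correlation was low (r = 0.21). Over the 704 chromosome 1 genes kept, the median deviation from the mean of the other tumours was 0.10, 0.11 and 0.31 log2 units in tumours 11, 12 and 13. Deviations from the mean over all tumours, a slightly smaller measure, were 0.53, 0.58 and 0.31 for Prox1 and 0.20, 0.30 and 0.37 for Nr5a2. The part of this chromosome-wide shift in the differences of both genes was not tested. Nr5a2 was steady, with an SD of 0.22 log2 units that exceeded that of 14.3% of genes, and Prox1 was near the middle, at 54.0%.

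Onecut1 (chromosome 9, 74861921 to 74889648, forward strand) was the scarcest member and did not pass the filter on low counts, so 8 of 9 members entered the tests. It had 0.354 CPM in tumour 07, which rests on 4 counts, 1.04 CPM in tumour 04 and a median of 2.88 CPM. The highest values were 5.09 CPM in tumour 06 and 6.59 CPM in tumour 12, the latter from 192 counts. Its SD of 1.11 log2 units dropped to 0.72 without tumour 07, the shallowest library.

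Set side by side, the members rose and dipped in part together. Tumours 11, 12 and 13 were above the mean of the gene for 8 of 9 members each, Cebpb being the exception in each case. The share of all genes above their own mean in each tumour was not computed. Tumour 09 was the lowest for 5 members (Hnf4a, Foxa1, Foxa2, Cebpa and Nr5a2) and above the mean only for Onecut1. Tumour 07 was the lowest for Prox1 and Onecut1 and above the mean for only 2 members, Foxa1 and Foxa2. In tumour 05, Cebpb was 1.67 log2 units above its mean while Foxa1 was 0.65 below. In the map of deviations the block of positive values at tumours 11 to 13 is broken only in the Cebpb row.

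**Figure D3:**
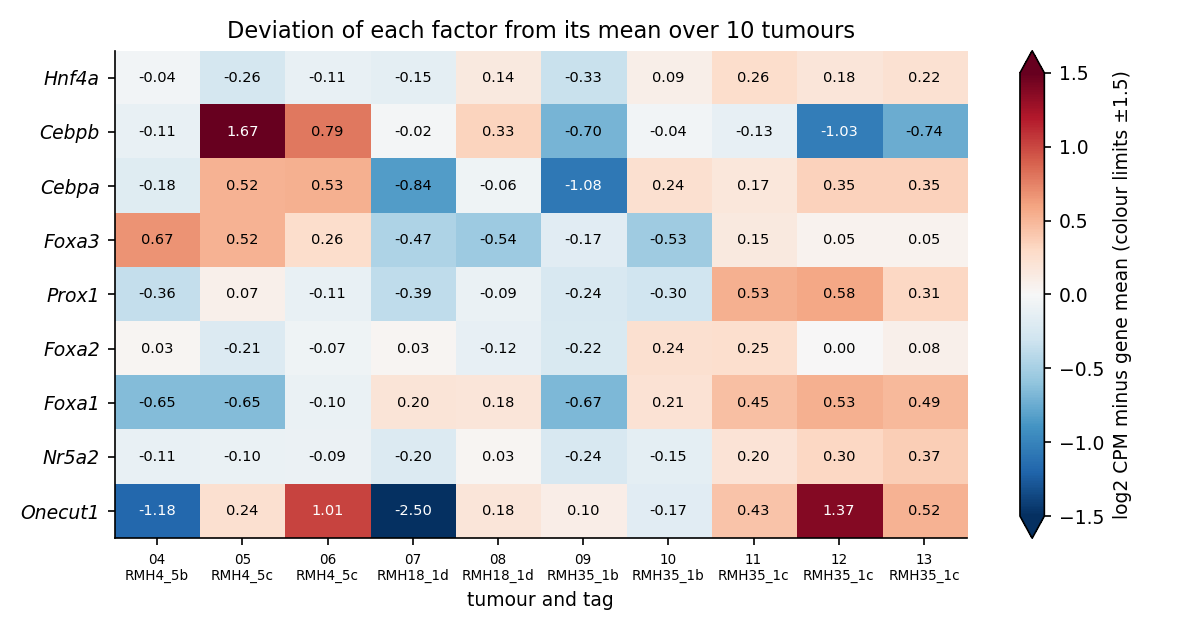
Deviation of each factor (rows) from its mean log2 CPM over 10 tumours (columns, with the tag under each tumour), printed in each cell and coloured from blue (below) to red (above), with colour limits of ±1.5. Tumours 11, 12 and 13 lie above the mean for 8 of 9 factors each, Foxa2 in tumour 12 only just, and tumour 09 lies below it for 8 of 9.

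Whether a factor differed between tags was tested across all 12462 genes with edgeR's quasi-likelihood F-test, with Benjamini-Hochberg adjustment over those genes and a threshold of 0.05. None of the 8 members tested passed, against a background of 0.746% of genes (93 of 12462). At an unadjusted p under 0.05, 4 of the 8 members passed, and 1813 genes did so in all. Foxa3 came nearest (edgeR adjusted p = 0.117), with tag means between 5.68 and 6.85 log2 CPM, a range of 1.17, and an SD within tags of 0.15. Cebpb (adjusted p = 0.128) had the widest range of tag means among those tested, 1.86 log2 units, and Prox1 followed (adjusted p = 0.182). The remaining 5 had adjusted p-values from 0.329 (Foxa1) to 0.912 (Foxa2). A likelihood ratio test in DESeq2, which called 1207 of 12462 genes, passed Cebpb (adjusted p = 6.13e-05), Foxa3 (0.00424) and Prox1 (0.0203). For these 3 members the outcome thus depended on the test, and for the other 5 it did not. Without tumour 11, 05, 13 or 12, edgeR called 0, 2, 9 and 19 genes, without tumour 07, 06 or 08 it called 46, 54 and 60, and without tumour 09, 10 or 04 it called 143, 178 and 163. No member passed in any of these fits.

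Which genes followed Hnf4a across the tumours was then examined by fitting the log2 CPM of Hnf4a as a slope for every other gene in edgeR. Foxa1 was the only member of 7 tested that rose with it, 1 of 7 against a background of 0.819% of genes rising (102 of 12461), and none fell, against 2.41% falling (300 of 12461). DESeq2's Wald test, which passed 2.19% of genes as rising and 5.86% as falling, likewise passed Foxa1 alone among the 7. At an unadjusted p under 0.05 edgeR had Foxa1, Nr5a2 and Prox1 with a positive slope, as had 11.3% of all genes, and Cebpb with a negative slope, as had 9.34%. The slope of Foxa1 was 1.92 ± 0.47 (SE) log2 units per log2 unit of Hnf4a (edgeR adjusted p = 0.0474). As a description of the same values over 10 tumours, some of which share a tag, Pearson's r and Spearman's rho were both 0.84, and r was 0.65 without tumours 09 and 05, the farthest from the median of Hnf4a. Tumours 11, 12 and 13 had the highest values of both Hnf4a and Foxa1, and r without them was not computed. After each tag's mean was taken off both genes, r with Hnf4a was 0.79 for Foxa1, 0.92 for Cebpa and -0.81 for Foxa3, so by this measure Foxa1 did not stand alone within tags. These r rest on few tumours per tag, with tumour 04 alone in its own. Without tumour 09 the slope of Cebpa on Hnf4a, with no tag term, was -0.0033. The call of Foxa1 was a narrow one, as its slope stayed between 1.78 and 2.23 when any 1 tumour was left out but the adjusted p exceeded 0.05 in 8 of 10 such fits. With the tag as a further term the slope of Foxa1 was 1.51 (adjusted p = 0.479). In the plot of the pair, tumours 09 and 05 lie at the lower left and tumours 11, 12 and 13 at the upper right, with tumour 04 low for Foxa1 at a middle level of Hnf4a.

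**Figure D4:**
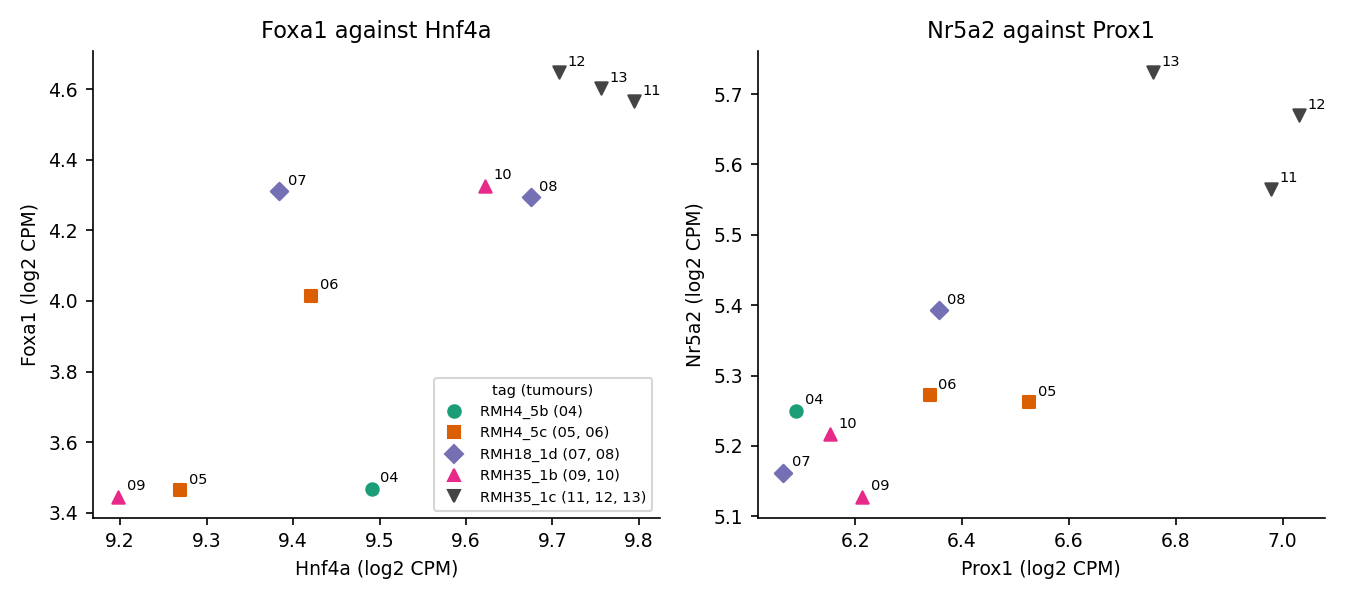
Left, Foxa1 against Hnf4a; right, Nr5a2 against Prox1; both axes in log2 CPM, with a point per tumour labelled by its number and coloured and shaped by tag. Foxa1 rises with Hnf4a over the 10 tumours, and in both panels tumours 11 to 13 have the highest values on each axis, with the other 7 tumours below.

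The remaining members did not pass in this fit. Nr5a2 had a slope of 0.85 ± 0.30 (SE, edgeR adjusted p = 0.135), Prox1 1.06 ± 0.45 (adjusted p = 0.207), Foxa2 0.57 ± 0.30 (adjusted p = 0.312) and Cebpa 0.85 ± 0.75 (adjusted p = 0.562). With the tag as a further term the slope of Cebpa was 2.62 (adjusted p = 0.172). Without that term the slope of Cebpb was -2.24 ± 1.03 (adjusted p = 0.241), but -3.38 without tumour 09, where it passed (adjusted p = 0.0398), and -0.57 without tumour 05. That of Foxa3 was -0.40 ± 0.63 (adjusted p = 0.767). The intervals that these errors give are wide, since Hnf4a itself varied by an SD of only 0.21 log2 units.

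Genes that rose with Hnf4a included Gjb1, which encodes the connexin of hepatocyte gap junctions (slope 2.23, edgeR adjusted p = 0.00934), Maob, a monoamine oxidase (2.21, 0.0113), Abca2, a lipid transporter (2.35, 0.00748), Vwce (2.96, 0.00683) and 2810459M11Rik (2.32, 0.00748). Genes that fell were Akap12, a scaffold for protein kinase A (slope -10.5, adjusted p = 0.000978), Adamts4, a matrix protease (-7.79, 0.00244), S1pr3, a sphingosine-1-phosphate receptor (-6.09, 0.00244), Hk1, the hexokinase of most tissues outside hepatocytes (-6.00, 0.00244), and Srgn, a proteoglycan of blood and endothelial cells (-6.44, 0.00263). With the tag as a further term none of the 5 rising genes passed, at adjusted p-values from 0.201 (Gjb1) to 0.316 (Maob), nor did Hk1 (0.0945) and Srgn (0.0827), whereas Akap12, Adamts4 and S1pr3 still did (0.0460 each). The slopes stayed close for several that lost their call, at 2.20 for Gjb1, 2.23 for Abca2, -5.74 for Hk1 and -6.94 for Srgn.

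Some markers of stromal, endothelial and macrophage cells fell as Hnf4a rose, where 2.41% of all genes did. Of 8 stellate and fibroblast markers 3 fell, namely Pdgfrb (edgeR adjusted p = 0.0204), Col3a1 (0.0249) and Col1a1 (0.0282), and 8 of 8 had a negative slope with a median of -3.52, against a median of 0.14 over all genes tested. Of 7 endothelial markers Cdh5 (adjusted p = 0.00312) and Pecam1 (0.00760) fell, and of 5 macrophage markers Cd68 (0.0353) did. In edgeR none of the 4 blood, 3 lymphatic, 3 cholangiocyte and 1 lymphocyte markers tested passed, of which 3, 2, 0 and 0 had a negative slope at an unadjusted p under 0.05, and 1 cholangiocyte marker had a positive one. DESeq2, with 5.86% of genes falling, passed as falling 6 of the 8 stellate and fibroblast, 5 of the 7 endothelial, 1 of the 5 macrophage, 3 of the 4 blood and 1 of the 3 lymphatic markers. The part of such cells in the Hnf4a slopes, that of Foxa1 included, was not tested. None of the 15 HNF4A target genes passed in edgeR (median slope 0.97), nor did any of 28 other hepatocyte factors (0.42), 8 bile acid and sterol genes (1.76), 15 β-catenin targets (1.07), 12 proliferation genes (1.08) or 14 acute phase genes (-3.10). Several of these medians were smaller with the tag as a further term, at 0.44 for the HNF4A targets, 0.87 for the bile acid and sterol genes, 0.64 for the β-catenin targets and -0.46 for the acute phase genes. Without any 1 tumour the median ran from -4.61 to -1.36 for the acute phase genes and from 0.23 to 0.61 for the other factors. At an unadjusted p under 0.05, 4 HNF4A targets, 8 of the other factors, 3 bile acid and sterol genes, 7 β-catenin targets and 3 proliferation genes had a positive slope, while 2 of the other factors and 5 acute phase genes had a negative one. Over all genes tested, 11.3% had such a p with a positive and 9.34% with a negative slope. DESeq2 passed Ttr, Hlf, Apom and Mki67 with a positive and Cebpd, Saa1 and Saa2 with a negative slope, against its 2.19% and 5.86% of all genes. Hlf, a circadian factor and the nearest of the 28, had a slope of 2.18 (adjusted p = 0.0561). The numbers called moved with the tumours included, from 106 in all without tumour 13, 129 without tumour 11, 147 without tumour 12 and 204 without tumour 10 to 617 without tumour 09 and 648 without tumour 07.

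With Cebpa, 0 of 7 members rose and 0 fell in the same fit, against backgrounds of 0.00803% rising (1 of 12461) and 0.128% falling (16 of 12461). At an unadjusted p under 0.05 none of the 7 passed either, while 1549 genes did, and DESeq2 called 0.353% of genes rising and 1.57% falling but none of the 7. The slopes of the 7 ran from 0.078 (Foxa2) to 0.72 (Cebpb). The gene that rose was Nfkbib, an inhibitor of NF-κB (slope 0.84, edgeR adjusted p = 0.0492). Those that fell with the lowest p were Tagln, an actin-binding protein of smooth muscle and myofibroblasts (slope -1.28, adjusted p = 0.0141), F2r, a thrombin receptor (-1.42, 0.0141), Fstl1 (-1.60, 0.0364), Fbn1, which encodes the microfibril protein fibrillin (-1.38, 0.0384), and Gpr153 (-1.42, 0.0384). With the tag as a further term 130 genes passed, 3 of them among the 17, namely F2r (slope -1.57, adjusted p = 0.0357), Fbn1 (-1.68, 0.0376) and Gpr153 (-1.75, 0.0376). Nfkbib (slope 0.81, adjusted p = 0.0899), Tagln (-1.06, 0.108) and Fstl1 (-1.60, 0.124) did not pass there. Of 6 progenitor and fetal genes Cd24a fell (slope -1.61, adjusted p = 0.0406). None of 14 acute phase genes passed in edgeR or DESeq2, although 14 of 14 had a positive slope, with a median of 1.12 against 0.092 over all genes. Of these, 4 had an unadjusted p under 0.05, as had 7.58% of all genes with a positive slope. That median ran from 0.29 to 1.72 without any 1 tumour and was -0.31 with the tag as a further term. No stellate and fibroblast marker passed in edgeR, although 8 of 8 had a negative slope with a median of -1.19, 6 of them at an unadjusted p under 0.05, and DESeq2 passed Col3a1, Lum and Acta2. Nor did any other marker of other cells pass in edgeR. The 4 blood markers all had a negative slope at an unadjusted p under 0.05 (median -3.19, and -3.79 to -2.11 without any 1 tumour), as did 3 of 3 lymphatic, 4 of 7 endothelial, 2 of 5 macrophage and 1 of 1 lymphocyte markers, where 4.86% of all genes did. DESeq2 passed 4 blood markers, Kdr, Eng and Tek of the endothelial ones and Lyz2 of the macrophage ones as falling. The part of such cells in the Cebpa slopes was not tested. The number of calls moved with the tumours included. No gene passed without tumour 09 or 13, where the slopes of F2r (-1.45 and -1.37) and Tagln (-1.29 and -1.27) stayed close to those with all tumours. There were 2 calls without tumour 04, 10, 11 or 12, 5 without tumour 08 and 6 without tumour 07, whereas 52 passed without tumour 05 and 127 without tumour 06.

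With Cebpb, again 0 of 7 members rose and 0 fell, against 0.955% rising (119 of 12461) and 0.409% falling (51 of 12461), and none had an unadjusted p under 0.05, where 10.8% of all genes had one with a positive and 9.12% with a negative slope. DESeq2 called 4.08% of genes rising and 3.14% falling in this fit, again with none of the 7. Genes that rose were Cited2, a transcriptional co-regulator (slope 1.54, edgeR adjusted p = 0.00387), Gadd45b, a stress gene (1.41, 0.00387), Jund, a subunit of AP-1 (1.03, 0.00387), Selenbp1 (0.84, 0.00427) and Rusc2 (0.78, 0.00427). Genes that fell were Xkr9 (slope -1.17, adjusted p = 0.00681), Pik3r3, a regulatory subunit of PI3K (-1.18, 0.0266), E2f2, a cell cycle factor (-1.10, 0.0306), Uhrf1, which maintains DNA methylation (-1.04, 0.0306), and Atp4a (-1.71, 0.0306). Of 14 acute phase genes Lbp, the lipopolysaccharide-binding protein, rose (slope 1.01, adjusted p = 0.0323), and 13 of 14 had a positive slope. Their median slope was 1.02 (0.41 to 1.34 without any 1 tumour), against -0.012 over all genes. DESeq2 passed 7 of the 14, all rising. Of 12 proliferation genes Ccne1 (slope -1.44, adjusted p = 0.0346) and Mcm2 (-0.50, 0.0489) fell, and of 28 other hepatocyte factors Gata6 rose (0.57, 0.0489). Without tumour 05, 0 genes passed (814 at an unadjusted p under 0.05), although the slopes stayed close to those with all tumours, at 1.35 for Cited2, 1.26 for Gadd45b, 1.01 for Jund and -1.26 for Xkr9. With the tag as a further term 0 genes passed as well (941), and there several slopes were smaller, at 0.69 for Cited2, 0.66 for Jund and -0.37 for Uhrf1, whereas that of Atp4a was -2.71. Without tumour 12, 06, 13 or 10 there were 15, 19, 34 and 99 calls, and without tumour 09 there were 407. In the fit with the tag the median slope of the acute phase genes was -0.94. The plot of list slopes sets the lists beside each other.

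**Figure D5:**
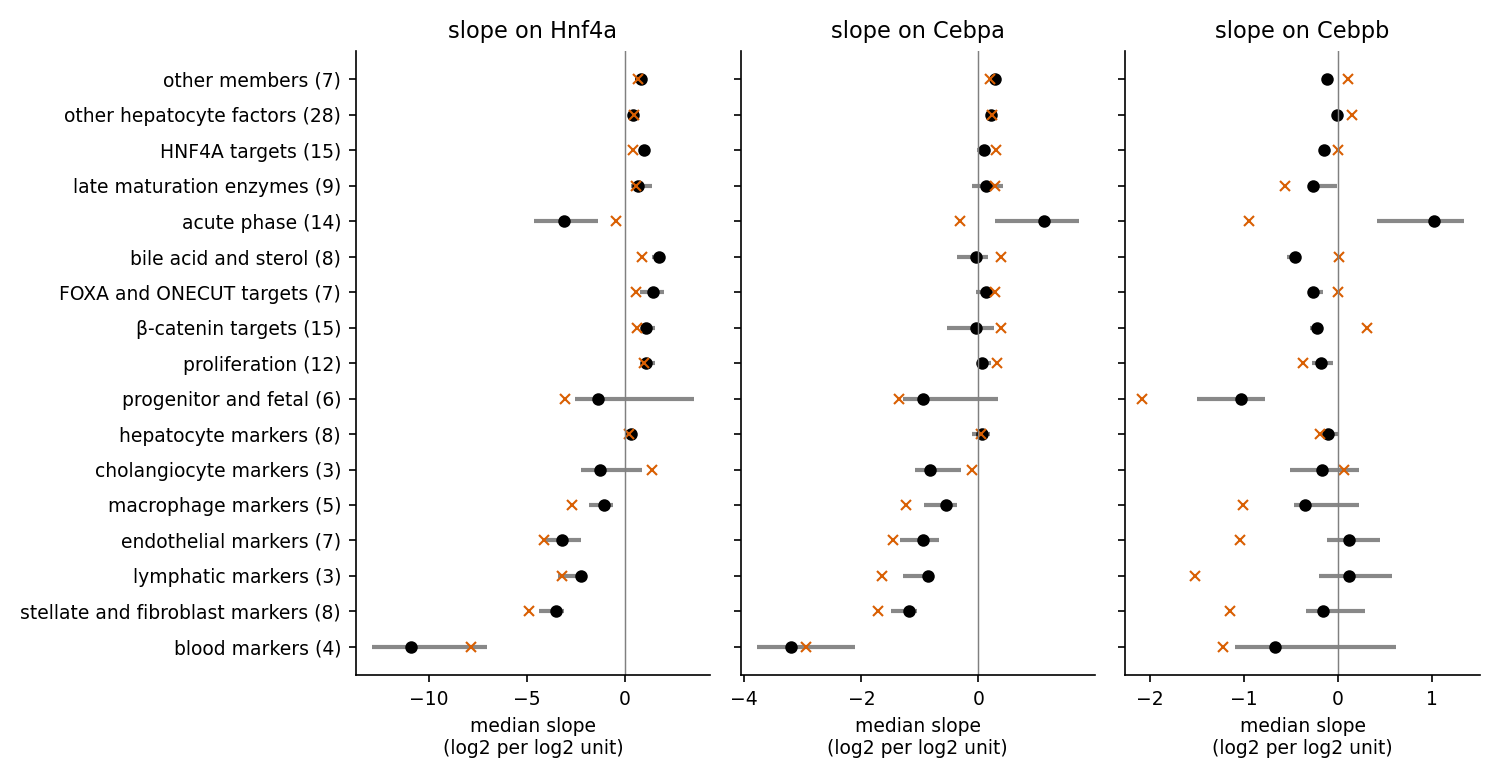
Median slope of each gene list (rows, with the number of genes tested) on Hnf4a, Cebpa and Cebpb, in log2 units per log2 unit of the factor. Black points give all 10 tumours, grey bars the range when any 1 tumour is left out, and orange crosses the fit with the tag as a further term. Stellate and fibroblast markers lie below 0 for Hnf4a (-3.52) and Cebpa (-1.19). Acute phase genes change side with the tag term for Cebpa (1.12 and -0.31) and for Cebpb (1.02 and -0.94).

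Finally, the genes whose log2 CPM was most like each member, other than Prox1 and Nr5a2, over the 10 tumours were listed among 11222 protein-coding genes that passed the filter, as a description without a test, since with so few tumours many genes reach a high r. Cebpb was closest to Hnrnpa0 (r = 0.96), Crlf2 (0.96) and Jund (0.95), and Hnf4a to Gpx4 (0.96), Pmm2 (0.96) and Gjb1 (0.95). Cebpa was closest to Sympk (0.95), Dvl3 (0.95) and Med25 (0.93), of which Sympk and Med25 lie with Cebpa on chromosome 7. Foxa1 was closest to Cox8a (0.96) and Zer1 (0.95), Foxa2 to Dnlz (0.95) and Antkmt (0.94), Foxa3 to Smim29 (0.94) and Onecut1 to Iqgap2 (0.96). Among these 7 members, the number of genes with r over 0.9 ran from 1 for Foxa3 to 31 for Hnf4a.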

How the data were processed

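RNA of whole liver tumours was extracted with Trizol and sequenced from stranded polyadenylated libraries, paired-end per the study's methods. The authors deposited 1 table of unnormalised read counts per gene. The submitters' processing notes name TopHat2, HTSeq and GRCm38, without versions, and the use of strand in counting is not given in the sources used here. The table has 19 columns, of which 9 were not used because their names could not be tied to a label. The match of the other 10 assumes that library numbers equal tumour numbers. Its 5 summary lines, which name no gene, were left out. Reads that aligned to more than 1 place made up 45.4% to 57.9% of all lines.

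TMM scaling was done with edgeR 4.0.16 under R 4.3.3, with limma 3.58.1 loaded. Log2 CPM used a prior count of 2. Genes were kept by filterByExpr over the 10 tumours as 1 group, which left 12462. Tags, and the slope on the log2 CPM of Hnf4a, Cebpa or Cebpb, were tested by edgeR's quasi-likelihood F-test with Benjamini-Hochberg adjustment over all genes kept and a threshold of 0.05. The slope's SE was the slope divided by the root of F. Alternatives were DESeq2 1.42.0 (its size factors, its tests), no filter, and leaving out each tumour. The tests were tested on simulated counts. Symbols, gene types and exon lengths came from GENCODE M39, in which 87.3% of identifiers have a symbol, and positions and promoters from RefSeq on GRCm38.p6. Other steps used Python 3.11.15, numpy 2.4.6, pandas 2.3.3, scipy 1.17.1 and matplotlib 3.10.9.

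The members and the 17 gene lists were chosen with earlier results of these data known. Named genes were the members, the most similar protein-coding genes by Pearson's r, and per slope up to 5 rising and 5 falling protein-coding genes of lowest adjusted p whose sign held without any 1 tumour, plus up to 4 list genes of lowest adjusted p. Not every gene that this rule names is reported here.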

Additional observations from a re-analysis of the deposited data

How the results depend on the processing

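The median SD of the 9 members, 0.43 log2 units, moved little (0.37 to 0.45 without any 1 tumour). Single tumours and the choice of test moved the numbers of genes called far more. Between tags, 93 genes were called, and 57 with DESeq2 size factors, 1207 with the DESeq2 likelihood ratio test, 1188 without a filter, 1 with the first part of the tag as the factor, and 0 to 178 without any 1 tumour. For Hnf4a, 402 genes were called, and 1003 with DESeq2's Wald test, 27 with the tag as a further term (26 of them falling) and 106 to 648 without any 1 tumour. For Cebpa, 17 were called, and 240 with the Wald test, 58 without a filter, 130 with the tag term and 0 to 127 without any 1 tumour. For Cebpb, 170 were called, and 900 with the Wald test, 76 without a filter, 0 with the tag term and 0 to 407 without any 1 tumour. With the Wald test 391 of the 900 fell, compared with 51 of 170 in edgeR. Where these numbers moved the cause was not tested. Without a filter Cebpb passed between tags (adjusted p = 0.00224), and Onecut1 did not (adjusted p = 0.330). The slope of Foxa1 on Hnf4a kept its sign in every fit run, and its adjusted p was 0.0108 with the Wald test, 0.0519 with DESeq2 size factors and 0.0572 without a filter. Of the other members, Cebpb had a slope on Hnf4a of 1.13 with the tag term, opposite in sign to that with all tumours. Without any 1 tumour, the slope of Foxa3 ran from -0.87 to 0.0099 (without tumour 05) and that of Cebpa from -0.0033 (without tumour 09) to 1.83. No paired analysis was possible because only the tumour group was used, so no groups share replicate numbers.

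Depth limits Onecut1 most, whose lowest value rests on 4 counts. With 10 tumours and 5 tags, 1 of which marks a lone tumour that is assumed to vary like the rest, a factor that did not pass is not shown to be alike between tags. Tags and families cannot be told apart from mice, cages or days, none of which the labels give.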

Other observations

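Acute phase genes were the list called most often between tags. In the edgeR test 5 of 14 passed, against 0.746% of all genes, namely Lcn2 (adjusted p = 0.0359), Fgb (0.0447), Fga (0.0453), Lbp (0.0485) and Fgg (0.0485). Fga, Fgb and Fgg encode the chains of fibrinogen, and Lcn2 encodes an iron-binding protein that inflamed liver releases. Fga ran from 1226 CPM to 17152 CPM, around a median of 2134 CPM. The summed level of the list was 68819 CPM in tumour 06 and 27206 CPM in tumour 05, and 10282 to 17075 CPM in the other 8 tumours. Tumours 06 and 05 share a tag and had the highest values of both Cebpb and Cebpa.

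Other liver genes called between tags were G6pc1, the enzyme that releases glucose (133 to 766 CPM, edgeR adjusted p = 0.0142), and the factors Dbp, a clock output gene (2.08 to 107 CPM, adjusted p = 0.0447), and Cebpd, a relative of Cebpb (3.77 to 31.7 CPM, adjusted p = 0.0447). The hour of collection of each tumour was not in the sources used here. The summed level of the progenitor and fetal list was 8494 CPM in tumour 09 and 3153 CPM in tumour 13, compared with 66.3 to 236 CPM elsewhere. This sum is carried by the imprinted genes H19 and Igf2, with highest values of 6807 and 1454 CPM, whereas Afp reached at most 128 CPM, Lin28b had no count, and 6 of the 13 listed genes passed the filter on low counts. Tumour 09 had the lowest and tumour 13 the second highest Hnf4a.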
